A study of Homo sapiens with 6 samples.

Results

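Chromatin immunoprecipitation sequencing (ChIP-seq) for the transcription factor NFATc2 was performed in THP-1, a monocytic acute myeloid leukaemia (AML) cell line carrying the MLL-AF9 fusion. The islands described here are those of the NFATc2 list that lie around centromeres. An island is a stretch of the genome, in steps of 200 bp, with more reads in the precipitated DNA than the unprecipitated DNA predicts. One point was set at the centromere of each of 17 chromosomes, and an island was counted as near the centromere where its middle lay within 5 Mb of that point. This rule uses position alone and took 1309 of the 32760 islands. They were compared with 5408 flanking islands, 5 to 20 Mb from the same points. The chromosomes without a point, 5 of them autosomes, held 4509 islands. These count in the whole list only, and those near a centromere were not told apart. Whether the points are the midpoints of the centromeres was not checked. Distances, and the reach of each window on either side, depend on where the points were set.

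The groups were 3 NFATc2 IP libraries, precipitated with a rabbit monoclonal antibody that the labels call NFAT1 (D43B1), and 3 Input DNA libraries, from sheared chromatin that had not gone through the NFATc2 precipitation. All cells were untreated and of this single cell line. The islands were called on all libraries together, so each has 1 value and no spread between replicates can be given. Intervals in brackets are exact Clopper-Pearson intervals at 95% for counting error in the pooled reads only. Coordinates are those of hg19, counted from 1, and no gene is assigned to an island because an hg19 annotation was not used here.

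Centromeres are built on long arrays of alpha satellite, a short unit repeated many times over, and the surrounding pericentromeric DNA holds further satellite families, segmental duplications and compact heterochromatin rich in histone H3 methylated at lysine 9. Reference genomes of the hg19 generation carry most of these arrays as gaps and only a few copies at their borders. Reads from the missing copies can align to the copies that are present, in precipitated and unprecipitated DNA alike, and regions of this kind are often put on blacklists. NFATc2 belongs to the NFAT family, whose members enter the nucleus after dephosphorylation by calcineurin and bind DNA through a Rel-like domain.

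Islands near centromeres were found on all 17 chromosomes, from 2 on chromosome 9 to 281 on chromosome 6. Of the 1309 islands, 680 lay on the short-arm (p) side and 629 on the long-arm (q) side. Each point sat in a stretch without islands. This stretch was 4 Mb or less in 14 chromosomes, with a median of 3.10 Mb, and it was over 10 Mb in the other three. On chromosome 1 it ran for 21.1 Mb, from 121485601 to 142561000, on chromosome 9 for 19.3 Mb and on chromosome 16 for 11.1 Mb. Chromosomes 1, 9 and 16 therefore had no q-side island within 5 Mb of their point. The stretch was the longest without islands on 7 of the 17 chromosomes. Whether these stretches are gaps of the reference, where no read can align, was not tested. 

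The number of islands per Mb did not differ in a set direction between the near and the flanking windows. It was lower near the point on 11 of 17 chromosomes, with a median difference of -3.63 islands per Mb (exact binomial sign test over chromosomes, two-sided, adjusted p = 0.47 by Benjamini-Hochberg over 7 measures). On chromosome 1 there were 2.70 islands per Mb near the point and 16 in the flank. On chromosome 6 the values were 28.1 and 39.7. Chromosomes 16 and 11 had more islands near the point, with 4.8 against 1.2 and 4.3 against 0.90 per Mb. The near windows include the empty stretch, which on chromosomes 1, 9 and 16 runs on into the flank and lengthens it too. With the stretch taken out of the length of both windows the median difference was 1.54 islands per Mb. The value was then higher near the point on 11 of 17 chromosomes, again not past the test (adjusted p = 0.47, exact sign test).

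Neighbouring islands lay close together in both windows. The median gap between successive islands on the same side of a point was 18200 bp in the near window and 22200 bp in the flank. Gaps under 1 kb made up 6.10% of the near gaps (78 of 1278) and 4.13% of the flanking ones. Such neighbours share a region of chromatin, so tests below take the chromosome, not the island, as the unit.

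Fold enrichment near centromeres was that of the flank to within small differences. The median log2 fold change, of IP reads against input reads scaled to the same depth, was 0.39 near the point (quartiles 0.28 and 0.53) and 0.39 in the flank (0.29 and 0.53). Taken chromosome by chromosome, the near median was lower on 12 of 16 chromosomes with at least 5 islands in each window, and the median of these differences was -0.03. This did not pass the test (exact sign test, adjusted p = 0.18). The differences ran from -0.24 on chromosome 11 (0.54 near, 0.77 in the flank) and -0.18 on chromosome 16 (0.29 and 0.47) to 0.04 on chromosome 5 (0.42 and 0.38). Those of chromosomes 11 and 16 rest on few islands, 43 near and 27 flanking on chromosome 11 and 48 and 36 on chromosome 16. In a list kept at a stricter FDR of 0.01 the near median was lower on 14 of 16 chromosomes and passed the test (median difference -0.018, adjusted p = 0.029 by the exact sign test). The list holds only islands that passed a threshold, and at higher read density a smaller fold passes it. Whether this bears on the difference was not tested.

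What set the islands near centromeres apart was a tail of very high read density in both kinds of library. The 95th percentile of input reads per kb of island was 142 near the point and 56.6 in the flank, while the medians were 43.6 and 42.2. Of the near islands, 100 (7.64%) held 100 or more input reads per kb, against 36 of 5408 (0.666%) in the flank and 261 (0.797%) in the whole list. The share was higher near the point than in the flank on 15 of 17 chromosomes. The exceptions were chromosome 9, with only 2 near islands, and chromosome 11, where it was 11.6% near the point and 14.8% in the flank. The level of 100 reads per kb was chosen after the values were seen, and these shares carry no test.

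The tests of read density were made on the medians and on the means of each chromosome. The median number of input reads per kb was higher near the point on 12 of 16 chromosomes, by a median of 3.03 reads per kb, which did not pass the test (exact sign test, adjusted p = 0.18). For IP reads per kb it was higher on 13 of 16, by 1.54 reads per kb (adjusted p = 0.15, exact sign test). With means in place of medians, both were higher near the point on 16 of 16 chromosomes, by 43.7 input reads and 29.3 IP reads per kb (adjusted p = 0.00011 for each, exact sign test). Within 3 Mb of the point the median input was higher on 13 of 15 chromosomes, by 5.13 reads per kb (adjusted p = 0.026, exact sign test). The corresponding IP value was higher on 14 of 15, by 3.27 reads per kb (adjusted p = 0.0068, exact sign test). The call thus depended on the summary and on the width of the window.

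Read density fell with distance from the point. Islands with 100 or more input reads per kb made up 23.7% of the 38 islands within 1 Mb, 14.95% of 301 at 1 to 2 Mb, 9.47% of 359 at 2 to 3 Mb and 3.19% of 282 at 3 to 4 Mb. At 4 to 5 Mb the share was 0.912% of 329 islands, and from there to 20 Mb it lay between 0.50% and 0.838%. The share of islands of 15 kb or wider fell in the same order, from 15.8% within 1 Mb to 2.43% at 4 to 5 Mb. The median log2 fold change stayed between 0.36 and 0.41 in these 5 steps and between 0.37 and 0.39 in the flank. The steps do not hold the same chromosomes. Within 1 Mb of the point, islands lay on chromosomes 2, 3, 4, 6 and 12 only.

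**Figure D1:**
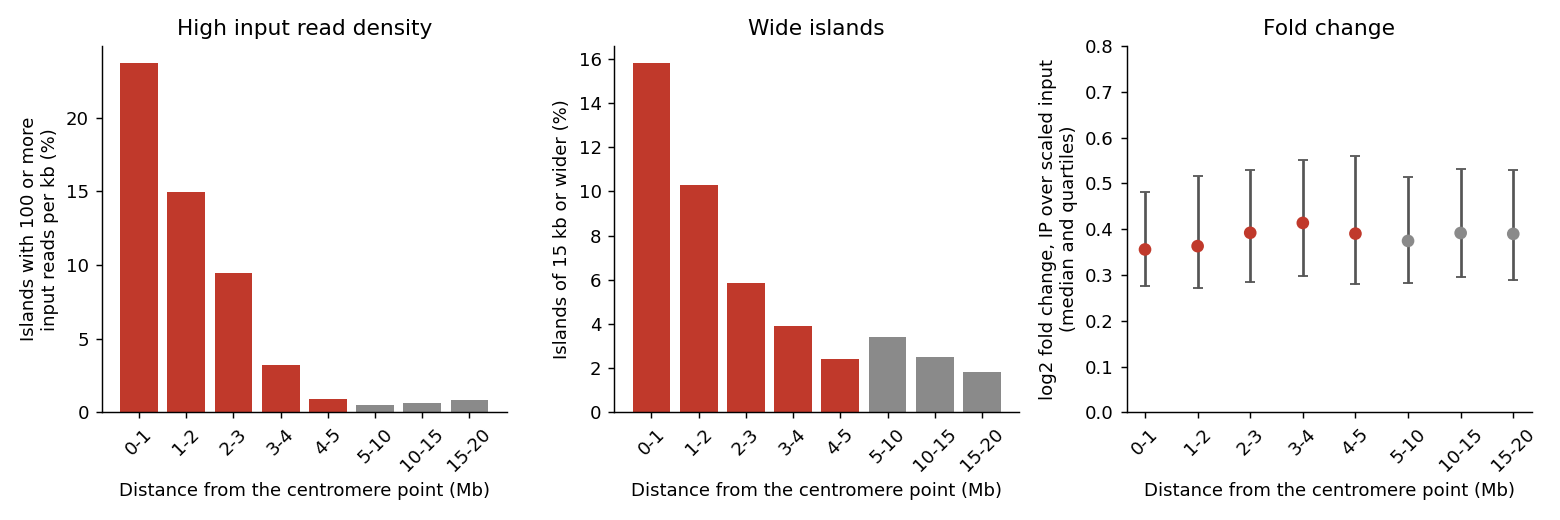
Islands by distance from the centromere point (x axes, Mb), with red for the near and grey for the flanking window: the share with 100 or more input reads per kb (left), the share of 15 kb or wider (middle) and the log2 fold change of IP against scaled input (right, points for medians and bars for quartiles). The first share falls from 23.7% within 1 Mb to 0.912% at 4 to 5 Mb, while the median log2 fold change stays between 0.36 and 0.41.

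The medians were close with or without these dense islands. The 1209 near islands with fewer than 100 input reads per kb had a median of 42.6 input and 32.3 IP reads per kb, and the 5372 flanking ones 42.1 and 31.7. Their median log2 fold changes were 0.39 and 0.39, and their median widths 5000 and 5000 bp. Away from the middle they still differed. The 95th percentile of input reads per kb was 70.7 in these near islands and 56.1 in the flanking ones, and 3.80% against 2.49% were 15 kb or wider.

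The densest islands lay at 200 input reads per kb and more. There were 46 near centromeres on 15 of the 17 chromosomes (not on 3 or 9), 16 in the flank and 100 in the whole list, so that 4.0% of all islands held 46 of these 100. Of the others, 24 lay on chromosomes without a point and 14 beyond 20 Mb from one. On chromosomes 7 and 16 there were 6 each, and on chromosomes 8 and 10 there were 5 each. The 46 islands covered 8.93% of the near island length and held at least 58.6% of its input reads. Their median width was 12200 bp, 20 were 15 kb or wider, and 42 lay within 3 Mb of their point. Their log2 fold changes ran from 0.15 to 0.93 with a median of 0.32, so that none exceeded 1. In the flank the 16 islands of this density were narrower, with a median of 1000 bp, and 5 of them exceeded a log2 fold change of 1. Of these 16, 4 on chromosome 9 and 2 on chromosome 16 lay on the q side, beyond the long empty stretch of their chromosome.

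The island with the most input reads per kb of the whole list lay on chromosome 1 from 121478201 to 121485600, directly at the border of the empty stretch. Its 7400 bp held at least 48374 input and 33758 IP reads, or at least 6537 input reads per kb. This was at least 142 times the median of the flanking islands on chromosome 1, and its log2 fold change was 0.31. On chromosome 8 the island from 43092001 to 43098200 held 37580 input and 25343 IP reads (6061 input reads per kb) at a log2 fold change of 0.26 (0.24 to 0.29). On chromosome 19 the island from 27731801 to 27741600 was the first after the empty stretch, with 44837 input and 31527 IP reads and a log2 fold change of 0.32 (0.30 to 0.34). On chromosome 18 the first q-side island, from 18510801 to 18520400, held 41876 input and 28398 IP reads at 0.27 (0.25 to 0.29). On chromosome 10, 2.40 Mb from the point, the island from 42596601 to 42603400 held at least 21340 input reads in 6800 bp at 0.46. All 5 islands were at least 82.5 times as dense in input as the flanking median of their chromosome, and IP reads were raised with input reads in all of them.

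**Figure D2:**
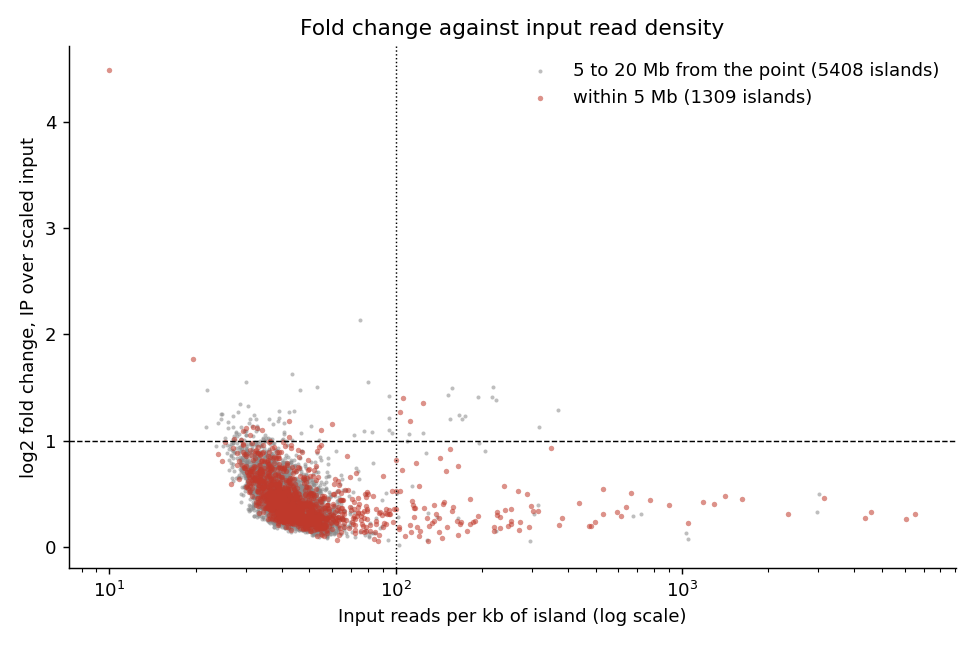
Log2 fold change of IP against scaled input (y axis) against input reads per kb (x axis, log scale) for 1309 near (red) and 5408 flanking (grey) islands, 1 point each, with lines at a log2 fold change of 1 and at 100 input reads per kb. Beyond 200 reads per kb the near islands stay between 0.15 and 0.93, and for islands whose p is listed as 50 the density is a lower bound.

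Such islands had the smallest p-values of the list at modest folds. For 9 of the 32760 islands the p-value was too small for the caller to write, and both −log10 p and −log10 FDR are listed as 50. Of these 9, 8 were near centromeres, on chromosomes 1, 2, 4, 6, 7 and 10, the last with 3. The ninth lay on chromosome 16 from 46385801 to 46456600, the first island after the 11.1 Mb stretch and 9.82 Mb from the point. At their folds these islands must hold at least 16439 to 35342 IP reads each. The largest −log10 p that is written out, 323, belonged to the chromosome 19 island described above. Of the 100 islands with the smallest p, 29 were near centromeres and 17 in the flank. Of the 100 with the highest log2 fold change, 3 were near centromeres and 14 in the flank. By p and by fold the near islands, 4.0% of the list, thus took different shares of the leading 100, and because p falls with read number at any given fold this comparison carries no test.

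The near islands also held a larger share of reads than of length. They were 4.68% of the island length and held 11.5% of the input reads and 11.3% of the IP reads counted in islands. Of the IP reads in excess of scaled input they held 10.3%. Without the 9 islands whose reads are known only as lower bounds these shares were 9.12% of input reads and 7.77% of the excess.

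Above the study's threshold of a log2 fold change of 1 there were 18 near islands, or 1.38% of 1309, called peaks here. The same call took 1.58% of all islands of the list and 1.63% of the flanking ones. The near share is close to this background. It was lower than in the flank on 11 of 16 chromosomes, with a median difference of -1.08 percentage points (exact sign test, adjusted p = 0.37). The 18 peaks lay on 13 chromosomes, 3 on chromosome 17, 2 each on chromosomes 7, 10 and 19, and 1 each on chromosomes 1, 3, 4, 5, 6, 11, 12, 16 and 18. Their median width was 2200 bp, 6 were 1000 bp or less, and 9 lay within 3 Mb of the point. They were sparse in reads next to the dense islands above, with medians of 93 IP and 75.5 input reads. The median width of their counting interval was 0.92 on the log2 scale, and the lower bound exceeded 1 in 3 of them.

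These 3 peaks lay on chromosomes 11, 5 and 17. The first is described below. On chromosome 5 the peak from 43854201 to 43856600, 4.54 Mb from the point, held 90 IP and 47 input reads, a log2 fold change of 1.77 (1.24 to 2.31). Its 19.6 input reads per kb were 0.47 times the flanking median of chromosome 5. On chromosome 17 the peak from 26794001 to 26796200, 2.80 Mb from the point, held 346 IP and 233 input reads at 1.40 (1.16 to 1.65), with 106 input reads per kb or 2.58 times the flanking median. Peaks thus lay in regions of low and of raised input.

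The next peaks by fold were short. On chromosome 18 a peak of 200 bp from 19192201 to 19192400 held 36 IP and 25 input reads at 1.36 (0.58 to 2.16). On chromosome 17 the 800 bp from 19349601 to 19350400 held 112 IP and 83 input reads at 1.26 (0.84 to 1.69). On chromosome 19 the 800 bp from 24009801 to 24010600 held 115 and 90 reads at 1.19 (0.77 to 1.6). All 3 had more than 100 input reads per kb, from 2.52 to 3.53 times the flanking median of their chromosome. Lower in the order were peaks on chromosome 6 from 57722801 to 57724000 (1.18, 0.63 to 1.74), chromosome 7 from 61842201 to 61843000 (1.15, 0.58 to 1.73), chromosome 4 from 45637801 to 45641200 (1.13, 0.76 to 1.51) and chromosome 12 from 39776401 to 39778600 (1.12, 0.66 to 1.59). The remaining 8 peaks had log2 fold changes from 1.00 to 1.12. The strongest peak of chromosome 3 lay from 87925201 to 87927800 (1.12), of chromosome 1 from 120367201 to 120368000 (1.10), of chromosome 10 from 39037201 to 39041800 (1.06) and of chromosome 16 from 35005801 to 35009400 (1.00). The intervals of these peaks overlap, and their order was not tested.

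Around the threshold the values were continuous. The peak just above it, on chromosome 16, held 117 IP and 104 input reads. The island just below it, on chromosome 2 from 97767201 to 97769200, held 82 and 73 reads, with intervals of 0.61 to 1.40 and 0.53 to 1.47. For comparison, the highest log2 fold change in the flank was 2.13 (1.23 to 3.11), in 200 bp on chromosome 19 from 19627001 to 19627200 with 37 IP and 15 input reads. The next was 1.62, on chromosome 19 from 18699401 to 18700000, and the third was 1.55, on chromosome 10 from 28379201 to 28380800.

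The strongest island of the list lay between some of the densest. On chromosome 11, from 51588201 to 51589000, 800 bp held 101 IP and 8 input reads, a log2 fold change of 4.49 (3.46 to 5.74). Its 10.0 input reads per kb were the fewest of all 32760 islands. The island before it, from 51567401 to 51586400, ended 1800 bp away and held 10073 IP and 12584 input reads in 19000 bp, at a log2 fold change of 0.51 (0.47 to 0.55). The island after it, from 51590201 to 51593200, began 1200 bp away, was the last before the empty stretch of chromosome 11, and held 3326 IP and 4247 input reads at 0.48 (0.41 to 0.55). Input reads per kb were 66.2 and 142 times as many in the neighbours as in the 800 bp between them. IP reads per kb were 4.20 and 8.78 times as many. The IP reads of the strongest island, 126 per kb, were thus below those of both neighbours, and its fold came with an input density far below theirs. Whether these islands overlap blacklisted regions was not tested.

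**Figure D3:**
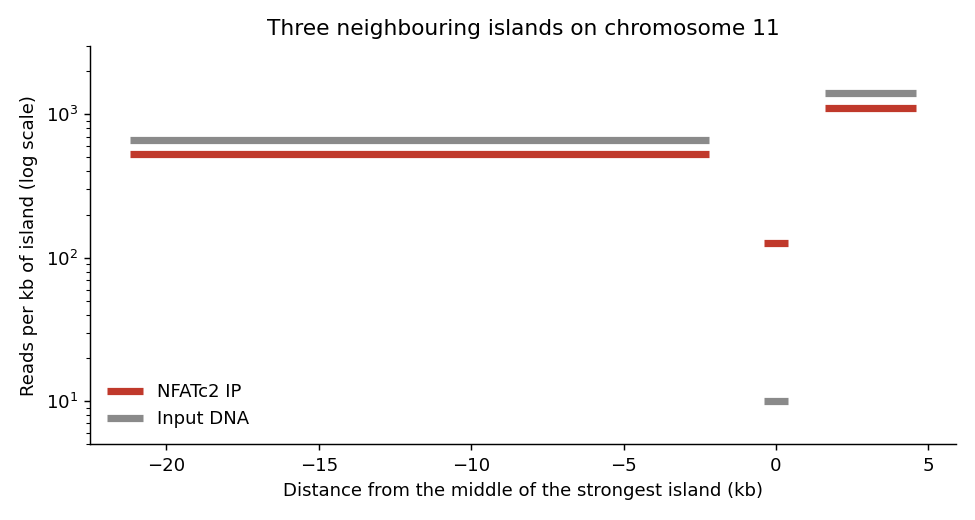
NFATc2 IP (red) and Input DNA (grey) reads per kb (y axis, log scale, pooled reads not scaled for depth) in 3 successive islands of chromosome 11 by distance from the middle of the strongest one (x axis, kb), each line spanning 1 island. Input falls from 662 and 1416 reads per kb in the outer islands to 10.0 in the middle one, and IP from 530 and 1109 to 126.

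The borders of the empty stretches held many of the dense islands. Inside the near windows 31 islands were the last before, or the first after, a stretch. Of these 31, 20 held 100 or more input reads per kb and 17 held 200 or more, with a median of 226 and a range from 30.0 to at least 6537. Their log2 fold changes ran from 0.07 to 0.86 with a median of 0.33, and none was a peak. Counting from the border islands away from the empty stretch, the median was 84.1 input reads per kb over 87 islands within 0.05 Mb. It was 59.6 over 45 islands at 0.05 to 0.1 Mb, 49.7 over 91 at 0.1 to 0.25 Mb, and 42.0 over 461 at 2 to 5 Mb. The borders are set by the islands themselves, and the decline is given as a description.

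Not every border was dense, and the sides of a chromosome could differ. On chromosome 6 the p-side border island held at least 2345 input reads per kb and the q-side one 71.4. On chromosome 11 the values were 1416 and 30.0. Chromosome 18 had the opposite order, with 141 on the p side and 4362 on the q side. On chromosomes 3 and 9 both border islands were under 100, at 51.1 and 72.3 and at 44.0 and 47.6 reads per kb. On chromosomes 8 and 10 both were dense, at 302 and 594 and at 226 and at least 437.

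**Figure D4:**
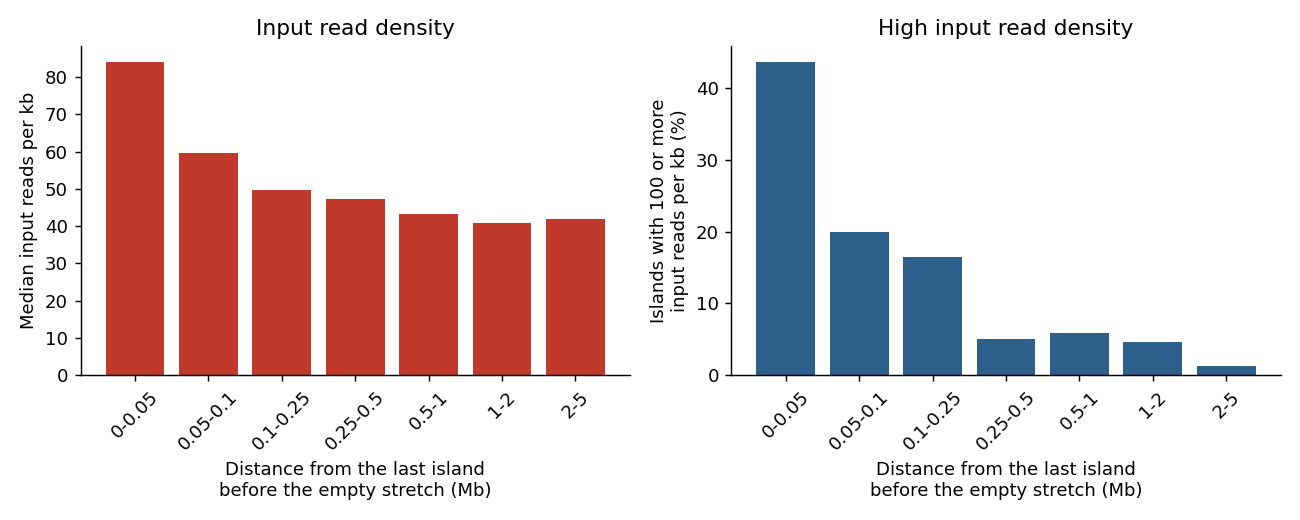
Near islands by distance from the island that borders the empty stretch of their chromosome (x axes, Mb): median input reads per kb (left) and share of islands with 100 or more input reads per kb (right). The median falls from 84.1 in the first 0.05 Mb to 42.0 at 2 to 5 Mb and the share from 43.7% to 1.3%.

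The p and q sides taken as wholes showed no set difference. Over 14 chromosomes with at least 5 near islands on each side, the median log2 fold change was higher on the p side in 7 and lower in 7 (exact sign test, adjusted p = 1.00). The same was true of the median input reads per kb, which was higher on the p side in 7 of 14 (adjusted p = 1.00, exact sign test). The differences in input ran from -18.3 reads per kb on chromosome 7 (41.7 on the p side, 60 on the q side) to 19.2 on chromosome 2 (62.5 and 43.2). On chromosome 17 the p side was also the denser, with 63.0 against 43.8.

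Wide islands took a larger share near centromeres, although the widest island of the flank (322600 bp) was wider than any near one. The median width was 5200 bp near the point and 5000 bp in the flank, and by chromosome it was larger near the point in 9 of the 14 that were not tied (exact sign test, adjusted p = 0.49). With means in place of medians it was larger on 14 of 16, by 869 bp (adjusted p = 0.0098, exact sign test). Islands of 15 kb or wider were 77 (5.88%) near the point, 140 (2.59%) in the flank and 2.20% of the list. Their share was higher near the point on 14 of 17 chromosomes, the exceptions being 5, 6 and 9. Islands of 1000 bp or less were 22 (1.68%) near the point and 34 (0.629%) in the flank, with the share higher on 8 of 14 untied chromosomes (exact sign test, adjusted p = 0.79).

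The widest near islands had low folds. On chromosome 6 the island from 57322601 to 57423200, 100600 bp wide, held 7645 IP and 13063 input reads at a log2 fold change of 0.06 (0.02 to 0.10). It stood 2.61 times above the flanking median in input reads per kb. On chromosome 10 the island from 39075401 to 39155000, 79600 bp wide and the last before the empty stretch, held 12673 and 17961 reads at 0.33 (0.30 to 0.36). On chromosome 6 the island from 56478201 to 56542800 held 2357 and 4023 reads in 64600 bp, and its interval (0.06, -0.01 to 0.13) included 0. Over all near islands fold fell with width (Spearman rho -0.53 over 1309 islands, and -0.53 over 5408 in the flank) and with input reads per kb (-0.56 and -0.57). Both relations are across islands that share libraries and a threshold on p, and are given as descriptions. Input reads are also the denominator of the fold, so a negative relation with input density is partly built in.

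The islands nearest to any point were all on chromosome 3. Its point lay 0.50 Mb from the p-side border of the empty stretch and 2.51 Mb from the q-side one. The island from 90497401 to 90504600 held 290 IP and 368 input reads at 0.49 (0.26 to 0.71). The next island out, from 90492201 to 90496600, held 386 and 590 reads at 0.22 (0.03 to 0.41) and 134 input reads per kb. The third, from 90486001 to 90491200, held 229 and 337 reads at 0.27 (0.03 to 0.52).

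Chromosomes differed in how far their near islands departed from the flank. In median input chromosome 16 departed most, with 73.9 input reads per kb near the point and 37.4 in the flank, and 18 of its 48 near islands (37.5%) held 100 or more. Chromosome 11 followed with 55.4 and 39.6, and it departed most in median log2 fold change, as given above. On chromosome 8, 7 of 23 near islands and none of 21 flanking ones held 100 or more input reads per kb. On chromosomes 3, 4, 6 and 12 the near and flanking medians were within 1 read per kb of each other, and on chromosome 5 the near median was lower (39.2 and 41.8). Flanks could hold dense islands too. The densest lay on chromosome 9 from 67320401 to 67321600, 3020 input reads per kb at a log2 fold change of 0.50, and on chromosome 4 from 68264001 to 68267200, 2977 at 0.32. The third was on chromosome 18 from 106201 to 111200, 1051 at 0.07. The island on chromosome 9 lay beyond its 19.3 Mb empty stretch.

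**Figure D5:**
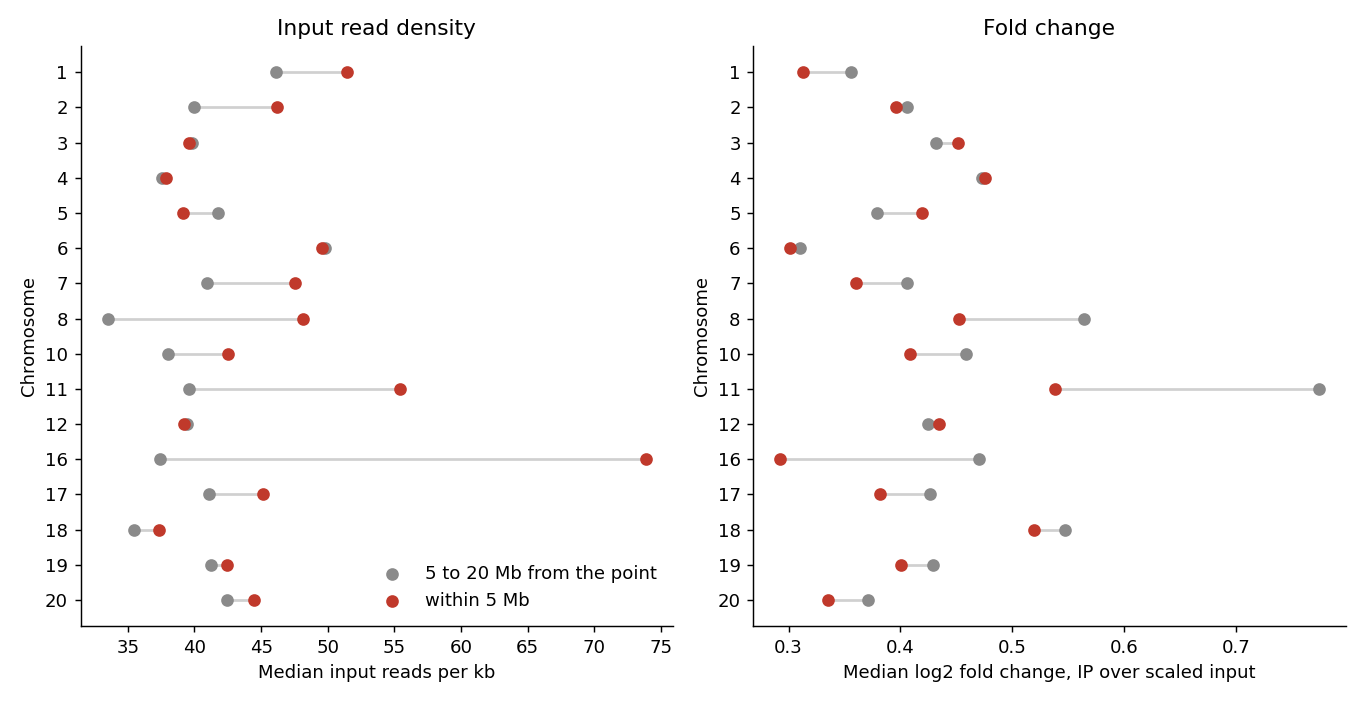
Median input reads per kb (left) and median log2 fold change of IP against scaled input (right) of islands within 5 Mb (red) and 5 to 20 Mb (grey) of the centromere point on the 16 chromosomes (y axes) with at least 5 islands in each window. Red lies right of grey in 12 of 16 for input and left of grey in 12 of 16 for fold, neither past the exact sign test.

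Reads were worked out for islands alone, so the input density of the DNA between islands is not known. Libraries precipitated with rabbit IgG were not analysed here.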

How the data were processed

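DNA from 11000000 THP-1 cells per IP was sequenced by the authors in 3 NFATc2 IP and 3 Input DNA libraries. The submitters' notes name hg19 and, with no role given, ChIPseeker 1.18.0, SICER 0.0.52, SAMtools 1.3.1, Trimmomatic 0.36.5 and BWA 0.7.17.1, and the methods name epic2 as the island caller. Whether duplicate reads were removed is not given in the sources used here. The authors deposited 1 list of islands at FDR below 0.05. For each island the authors deposited a score, the log2 fold change of IP against scaled input, the −log10 p of a Poisson test and the −log10 FDR. The list still holds all 517 islands above a log2 fold change of 1, so the removal of blacklisted regions that the paper describes had not been applied to it, and overlap with such regions was not tested.

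From the deposited fold and p, IP and input reads were worked out as the Poisson counts that give that p. Input reads were whole within 0.02 in 32751 islands, with a scaling factor of 0.562. The other 9 have p listed as 50, and their reads are given as the fewest that make p too small to write. On 2248 simulated islands the IP reads were recovered in 100.0%, and recovery of the input reads was not scored. The simulation used the same Poisson rule as the recovery, so it could check only the arithmetic. Its ranges of input reads and fold did not reach the densest islands or the strongest one.

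Each of 7 measures was compared between the near and flanking windows with the chromosome as unit (at least 5 islands in each window, except for islands per Mb), by exact binomial sign tests, and 2 more between the p and q sides, with Benjamini-Hochberg adjustment within each family. Positions are those of the list, and the GRCh38 reference was not used. Regions were named by fixed ranks of fold, input density, width and distance. The members and lists were chosen with earlier results of these data known. Shares at 100 and 200 input reads per kb, border islands, rankings and the chromosome 11 neighbours were added after the values were seen. Tests were run with scipy 1.17.1 and pandas 2.3.3 under Python 3.11.15 (numpy 2.4.6), and plots were drawn with matplotlib 3.10.9.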

Additional observations from a re-analysis of the deposited data

How the results depend on the processing

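No paired analysis was possible because the islands were called on pooled libraries, which also left no replicate to omit. Each chromosome was left out in turn instead. Near minus flanking medians then ranged from -0.04 to -0.03 (log2 fold change), 100 to 200 bp (width), 2.03 to 4.02 (input reads per kb), 1.41 to 1.67 (IP reads per kb), -1.13 to -1.02 percentage points (peaks), -3.65 to -2.48 (islands per Mb) and 0.15 to 0.36 percentage points (islands of 1000 bp or less), with no change of direction or call. The p minus q differences ranged from -0.0040 to 0.0018 (log2 fold change) and from -0.819 to 2.72 (input reads per kb), so their sign rested on single chromosomes.

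In 96 comparisons under other settings, 73 kept direction and side of the threshold, 14 came to pass the test and 9 changed sign. With at least 10 islands in a window no chromosome dropped out of the near and flanking comparisons, so these were bound to stay the same. With only islands wider than 1000 bp no adjusted p was obtained for the near and flanking comparisons, which were counted as kept on direction alone. Those that came to pass were the median input reads per kb (within 3 Mb 5.13, within 2 Mb 10.6, FDR 0.01 2.58, FDR 0.001 1.42, as a mean 43.7) and the median IP reads per kb (3.27, 6.31, 1.95, 2.75 and 29.3 in the same order). The median log2 fold change passed at FDR 0.01 (-0.018) and 0.001 (-0.049), and the width at FDR 0.001 (650 bp) and as a mean (869 bp). The share of islands of 1000 bp or less changed sign at FDR 0.001 (-0.80 percentage points) and with islands less than 1 kb apart merged (-0.44). The number of islands per Mb changed sign without the empty stretch (1.54). The p minus q difference in log2 fold change became 0.023 at FDR 0.01, 0.0030 after merging, 0.0025 with at least 10 islands a side and 0.0050 as a mean, and that in input reads per kb became -0.45 at FDR 0.01; none of these passed. Chosen after the values were seen, keeping islands with fewer than 100 input reads per kb turned the width difference to -50.0 bp. The cause of these changes was not tested. Depth limits the fold of single islands, for which the 95% counting interval had a median width of 0.61 on the log2 scale.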
